A study of Mus musculus with 8 samples.

Results

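The genes of the proteasome and of its interferon-inducible variant, the immunoproteasome, were followed in whole spines of mice with proteoglycan-induced spondylitis (PGISp) and of control mice. Members were all probes whose gene symbol begins with Psma, Psmb, Psmc, Psmd or Psme followed by a digit, which gave 63 of the 25695 probes with values, for 42 genes. Of these genes, 40 encode subunits, activators or assembly chaperones of the proteasome. Psmc3ip and Psme3ip1 were taken by their symbols only, and encode proteins that are not subunits. At week 12, once disease was established, 4 PGISp and 4 control spines were measured on Illumina MouseRef-8 arrays, 1 spine per array, to see which genes differ. PGISp mice were BALB/c mice lacking IL4, females of 3 months at the first injection, and received human cartilage proteoglycan extract (2 mg per injection) with dimethyl dioctadecyl ammoniumbromide on days 0, 21 and 42. Control mice were of the same IL4 knockout strain and received no extract, and their sex is not stated separately. PGISp spines came from mice chosen for severe peripheral arthritis, and arthritis of the spine was not scored before RNA was taken. All 8 arrays lay on 1 BeadChip, and each spine is called by the letter of its position there, which was A, C, E or G for PGISp and B, D, F or H for control.

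The proteasome is the large protease that breaks down proteins tagged with ubiquitin. Its core particle is a stack of rings made of alpha (Psma) and beta (Psmb) subunits, of which Psmb5, Psmb6 and Psmb7 carry the catalytic sites. A regulatory particle caps the core. It consists of a base, which holds the ATPases Psmc that unfold substrates, and a lid, both of which contain Psmd subunits. Interferon gamma induces Psmb8, Psmb9 and Psmb10, which replace Psmb5, Psmb6 and Psmb7 in newly built particles, and leukocytes make these subunits also without stimulation. Psme1 and Psme2 form an activator ring that is likewise inducible. The changed core and the activator are known for their part in making peptides for MHC class I molecules.

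Values are log2 values as deposited, and differences are PGISp minus control on that scale. Background, the level of olfactory and vomeronasal receptor probes, lay at 6.73 to 6.80, and 11942 to 14114 probes on the PGISp arrays and 13043 to 13835 on the control arrays lay above it. A gene was tested where its brightest probe averaged over 6.77. Of the 40 proteasome genes, 38 passed, namely all 5 inducible members and 33 others. Psma1 and Psma6, both of the alpha ring, were below background on all 8 arrays and have no call. Groups were compared with limma over all 9608 genes tested, with a Benjamini-Hochberg adjusted p under 0.1 as the threshold. The median difference over those genes was -0.0047. The Y-linked gene Eif2s3y gave a signal in control B (8.57) and control F (8.33) and lay at 6.49 to 6.92 in the others. Since whole spine was measured, fewer cells of a type and less RNA per cell cannot be told apart.

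The inducible members did not differ detectably between PGISp and control spines, and few other proteasome genes did. None of the 38 members measured was called higher in PGISp spines, against 6.26% of all genes tested. Called lower were 2, Psmb5 and Psmd12, or 5.26% of the members, against 4.56% of all genes tested. At an unadjusted p under 0.05, limma found 1 member higher (Psme3) and 8 lower (Psmb4, Psmb5, Psmb7, Psmc1, Psmc3, Psmd7, Psmd12 and Psme4), against 11.6% and 10.9% of all genes. The methods' t-test, unpaired and adjusted over all genes, called 0 members higher and 1 lower. It takes its unpaired form from the paper's methods, but with a Benjamini-Hochberg adjustment. The paper used a multivariate permutation correction instead, which was not run here. Calls lost under this name, here and below, therefore do not show what the authors' own procedure would call. With every probe tested on its own, 0 of 53 member probes were called higher and 3 lower, against 5.84% and 4.36% of all probes. Differences ran between -0.33 (Psme4) and 0.23 (Psme3). Those of all genes tested ran between -1.10 and 2.40, but a range widens with the number of genes, so these ranges cannot be compared directly. The number of members called lower changed with the arrays used. It was 1 without PGISp A, PGISp C or control B, 0 without control F, 0 without controls B and F together and 3 without PGISp G or control H. The members behind the count changed too. Without PGISp C the call was Psmd7, in place of both Psmb5 and Psmd12. The count stayed at 2 without PGISp E, where Psmc1 replaced Psmb5, and without control D, where Psmb7 did.

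**Figure D1:**
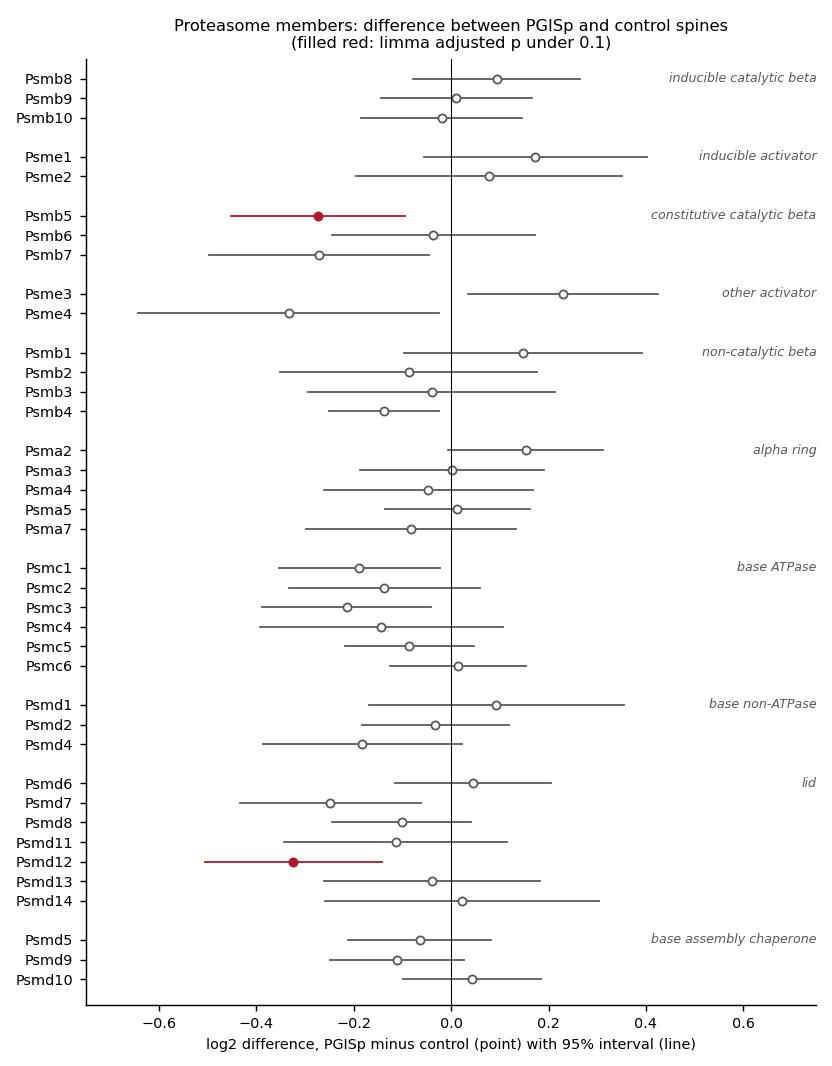
Log2 difference between PGISp and control spines (horizontal axis) for the 38 proteasome members measured, grouped by their place in the particle. Points are differences of means over 4 arrays each and lines are 95% intervals from limma. The filled points, Psmb5 and Psmd12, passed the test, and the intervals of all 5 inducible members at the top span 0.

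Psmb8, the inducible counterpart of Psmb5, read 7.30, 7.02, 7.23 and 7.03 in PGISp spines A, C, E and G, against 6.995, 7.07, 7.14 and 7.01 in control spines B, D, F and H. PGISp A and E lay above every control spine, PGISp C and G within the control range. The difference was 0.09 (95% interval -0.08 to 0.27, adjusted p = 0.531). On the linear scale the interval runs from 0.947-fold to 1.202-fold of control. The probe lay close to background, where the transformed values flatten and understate a fold change. Its promoter is shown because it holds the only match among the members to a gamma-activated site, the element through which interferon gamma acts, with the letters TTCNNNGAA, searched over the 250 bases before each RefSeq start, on both strands. The match, in capitals, lies in the sequence at chr17:34197945-34198194 (GRCm38.p6, plus strand), read 5′ to 3′ towards the start.
Psmb8: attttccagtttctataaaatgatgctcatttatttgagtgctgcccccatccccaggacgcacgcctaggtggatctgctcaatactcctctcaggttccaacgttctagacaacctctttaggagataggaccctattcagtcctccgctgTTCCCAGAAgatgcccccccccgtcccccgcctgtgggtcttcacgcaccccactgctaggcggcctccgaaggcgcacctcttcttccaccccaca
Of all 32851 RefSeq promoters of this length, 7.02% hold such a match, and of the 35 members with an entry 1 does. Another interferon element, with the core letters GAAANNGAA of the interferon-stimulated response element, was found in 7.13% of all promoters and in those of Psmb3, Psmd4 and Psmd9. These are matches of letters and not sites shown to be used.

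Psmb9, the counterpart of Psmb6, read 6.88, 6.83, 6.95 and 6.97 in PGISp spines, against 7.04, 6.92, 6.80 and 6.82 in control spines. The groups overlapped, all 8 values lay close to background, and the difference was 0.01 (interval -0.14 to 0.17, adjusted p = 0.946). Psmb10, the counterpart of Psmb7, was brighter, and read 9.01, 8.74, 8.80 and 8.79 in PGISp spines against 8.81, 8.97, 8.86 and 8.79 in control spines. The highest value was that of PGISp A and the lowest that of PGISp C, and the difference was -0.02 (interval -0.18 to 0.15, adjusted p = 0.911). The dimmer probe of Psmb10 gave a difference of -0.04. On the linear scale the intervals of Psmb9 and Psmb10 were 0.905-fold to 1.12-fold and 0.880-fold to 1.11-fold of control.

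Psme1, a subunit of the inducible activator, read 10.002, 9.84, 10.01 and 9.70 in PGISp spines, against 9.71, 9.97, 9.65 and 9.54 in control spines. PGISp A and E were the highest of the 8 spines, and PGISp C and G lay within the control range. The difference was 0.17 (interval -0.06 to 0.40, adjusted p = 0.362), but the dimmer probe of the gene, at 7.99 to 8.41 in PGISp and 8.04 to 8.66 in control spines, gave -0.14, so that the probes disagree in direction. Its partner Psme2 read 7.85, 7.41, 7.50 and 7.70 in PGISp spines against 7.27, 7.46, 7.74 and 7.68 in control spines, with a difference of 0.08 (interval -0.20 to 0.35, adjusted p = 0.762). PGISp A was the highest spine and control B the lowest. Over the 5 inducible members the median difference was 0.08, and 4 of the 5 lay above 0. The median was 0.020 without PGISp A, 0.13 without PGISp C and 0.016 with the probes of a gene averaged. Limma called 0 of the 5, and 0 had an unadjusted p under 0.05. Averaged over the 5 after centring each gene on its mean, PGISp A stood highest at 0.16 and the other PGISp spines at -0.076 to 0.052, against -0.080 to 0.032 in control spines. PGISp A also had the highest background of the 8 arrays (6.80) and the fewest probes above it (11942). Whether this bears on its values was not tested.

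**Figure D2:**
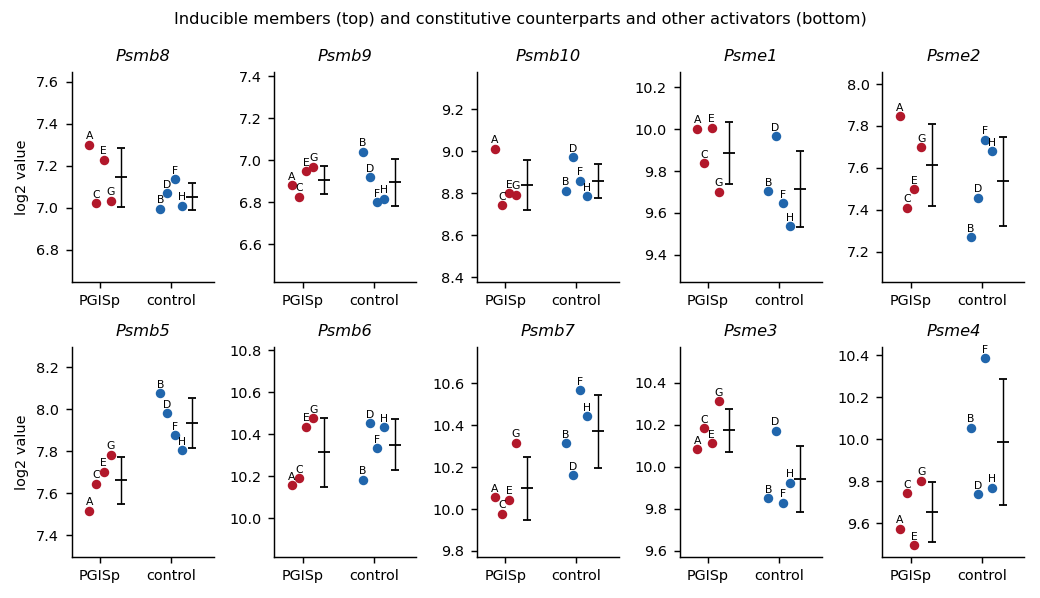
Log2 values on each array (vertical axis, a span of equal size in every panel) of the 5 inducible members in the upper row and of Psmb5, Psmb6, Psmb7, Psme3 and Psme4 in the lower row. PGISp spines are on the left and control spines on the right of each panel, letters name the array position, and the bars are the mean ± SD of 4 arrays. Only in the panel of Psmb5 do all PGISp spines lie below all control spines.

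The constitutive catalytic subunits were the class with the lowest median difference, -0.27. Psmb5, which carries the chymotrypsin-like activity, fell in PGISp spines. It read 7.52, 7.65, 7.70 and 7.78 in PGISp spines, against 8.08, 7.98, 7.88 and 7.81 in control spines. Every PGISp spine lay below every control spine, with PGISp G just below control H. Of the 38 members, 3 showed no overlap of this direction (Psmb4, Psmb5 and Psmd12) and 0 showed the opposite, against 5.67% and 7.77% of all genes tested. The means were 7.66 ± 0.11 and 7.94 ± 0.12 (SD, n = 4 each), a difference of -0.27 (interval -0.45 to -0.09, adjusted p = 0.0759 in limma), which is 0.828-fold of control. The call was lost when PGISp A, C or E or control B, D or F was left out, with adjusted p values of 0.128 to 0.180, without controls B and F together (0.377) and in the methods' t-test (0.167).

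Psmb6, which carries the caspase-like activity, read 10.16, 10.19, 10.43 and 10.48 in PGISp spines, against 10.18, 10.45, 10.33 and 10.43 in control spines. The groups overlapped, with a difference of -0.04 (interval -0.24 to 0.17, adjusted p = 0.863). Psmb7, which carries the trypsin-like activity, read 10.06, 9.98, 10.04 and 10.32 in PGISp spines, against 10.31, 10.16, 10.57 and 10.44 in control spines. PGISp A, C and E were the lowest of the 8, and the difference of -0.27 did not pass the test (interval -0.50 to -0.05, adjusted p = 0.146). The other probes of Psmb7 gave -0.07 and -0.28. The value of -0.28 belongs to the dimmest probe, which showed no overlap (8.53 to 8.87 in PGISp and 8.90 to 9.05 in control spines). It was called when each probe was tested on its own (adjusted p = 0.0779 in limma).

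Whether an inducible subunit and its counterpart changed unequally was asked from their difference within each array, with an exact permutation test (two-sided, 70 assignments, smallest possible p = 0.0286) and adjustment over the 3 pairs. Psmb8 minus Psmb5 was -0.22, -0.63, -0.47 and -0.75 in PGISp spines, against -1.08, -0.91, -0.74 and -0.80 in control spines. PGISp A, C and E exceeded every control spine and PGISp G did not exceed control F. The gap between the groups was 0.37 (interval 0.03 to 0.70), with an exact p = 0.0571 and an adjusted p = 0.171, which does not pass. The intervals of the pairs are t intervals from a pooled variance and do not come from the permutation test. They are not adjusted over the 3 pairs, so an interval without 0 is not a pass. Psmb10 minus Psmb7 differed by 0.25 (interval -0.12 to 0.63, exact p = 0.2, adjusted p = 0.3), and Psmb9 minus Psmb6 by 0.05 (interval -0.24 to 0.34, exact p = 0.686, adjusted p = 0.686). All 3 values were positive. The pair of Psmb8 uses the same Psmb5 values as the call above, and the differences between probes of a pair say nothing about which is more abundant.

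**Figure D3:**
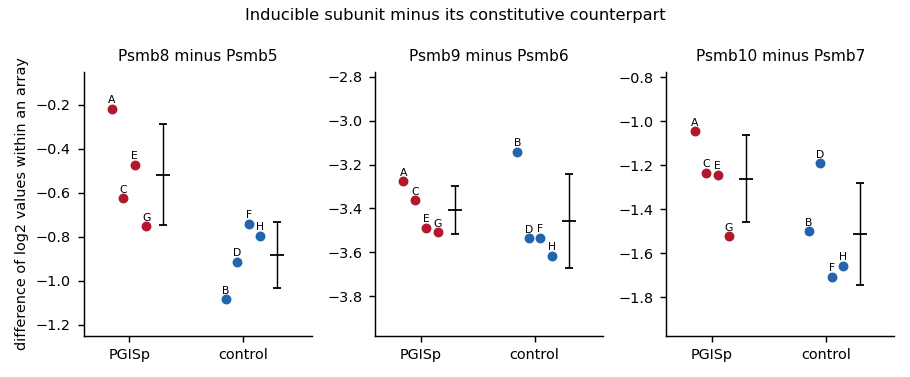
Log2 value of each inducible subunit minus that of its constitutive counterpart within an array (vertical axis), for PGISp spines on the left and control spines on the right of each panel, with letters for the array position and bars for the mean ± SD of 4 arrays. PGISp A, C and E lie above all control spines for Psmb8 minus Psmb5, and the groups overlap in the other pairs.

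The other activators lay on opposite sides of 0, and neither passed the test. Psme3, which forms an activator ring in the nucleus, read 10.08, 10.18, 10.11 and 10.31 in PGISp spines, against 9.85, 10.17, 9.83 and 9.92 in control spines. Control D lay among the PGISp values and the other controls below them. The difference of 0.23 was the highest of any member (interval 0.03 to 0.43, adjusted p = 0.154), and without control D it was 0.31 and passed (adjusted p = 0.0534). Psme4, a large single-chain activator, read 9.57, 9.74, 9.50 and 9.80 in PGISp spines, against 10.06, 9.74, 10.39 and 9.77 in control spines. Controls B and F, the spines with the Y-linked signal, stood above all others, and controls D and H lay between PGISp values. The difference was -0.33 (interval -0.64 to -0.02, adjusted p = 0.186), and its residual SD of 0.236 was the highest of any member. It was -0.20 without control F and -0.10 without controls B and F together (adjusted p = 0.384 and 0.753).

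In the lid, 1 of 7 members was called lower and 0 higher, against 4.56% and 6.26% of all genes tested. Psmd12, a structural subunit of the lid, read 8.89, 8.82, 9.01 and 9.11 in PGISp spines, against 9.18, 9.26, 9.43 and 9.26 in control spines. All PGISp spines lay below all control spines. The means were 8.96 ± 0.13 and 9.28 ± 0.11 (SD, n = 4 each), a difference of -0.32 (interval -0.51 to -0.14, adjusted p = 0.0463 in limma), or 0.799-fold of control. The dimmer probe of Psmd12 did not show this. It read 7.31, 7.09, 7.27 and 7.26 in PGISp spines and 7.17, 7.15, 7.30 and 7.32 in control spines, a difference of 0.001 (adjusted p = 0.998 over probes), and with both probes averaged the gene gave -0.16 (adjusted p = 0.195). The call was also lost without PGISp C (0.101), without control F (0.138), without controls B and F (0.238) and in the methods' t-test (0.125). Psmd7, which forms the docking partner of the deubiquitinating lid subunit Psmd14, read 9.41, 9.51, 9.21 and 9.23 in PGISp spines, against 9.49, 9.57, 9.72 and 9.57 in control spines. PGISp C exceeded control B, and the difference of -0.25 did not pass (interval -0.43 to -0.06, adjusted p = 0.112), with -0.20 from the dimmer probe. Psmd14 itself differed by 0.02, and the remaining lid members, Psmd6, Psmd8, Psmd11 and Psmd13, by -0.11 to 0.05.

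The promoters of Psmb5, Psmb6 and Psmd12 are shown because these catalytic and called members hold the letters TGACNNNGC of the antioxidant response element, at which the transcription factors Nfe2l1 and Nfe2l2 act on proteasome genes. Capitals mark the match, on either strand, in the 250 bases before the start (RefSeq, GRCm38.p6). They lie at chr14:54617996-54618245 (minus strand), chr11:70525107-70525356 and chr11:107479278-107479527 (both plus strand).
Psmb5: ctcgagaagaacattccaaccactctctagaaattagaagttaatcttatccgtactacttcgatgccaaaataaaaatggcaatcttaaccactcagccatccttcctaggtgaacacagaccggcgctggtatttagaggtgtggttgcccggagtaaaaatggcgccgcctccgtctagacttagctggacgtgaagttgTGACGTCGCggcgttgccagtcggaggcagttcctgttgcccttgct
Psmb6: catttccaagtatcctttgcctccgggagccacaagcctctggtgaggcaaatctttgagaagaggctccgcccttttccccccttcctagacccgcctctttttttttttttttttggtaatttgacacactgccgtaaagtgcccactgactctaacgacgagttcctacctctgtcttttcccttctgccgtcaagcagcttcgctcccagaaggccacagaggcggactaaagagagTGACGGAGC
Psmd12: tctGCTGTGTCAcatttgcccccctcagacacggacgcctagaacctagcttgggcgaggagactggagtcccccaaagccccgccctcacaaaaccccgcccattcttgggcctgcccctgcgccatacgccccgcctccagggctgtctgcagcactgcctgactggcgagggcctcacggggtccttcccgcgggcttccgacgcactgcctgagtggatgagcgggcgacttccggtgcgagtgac
The match lies close to the start in Psmb6 and at the far end of the window in Psmd12, where it is on the opposite strand. Of the 35 members with an entry 5 held this match, the others being Psmc6 and Psmd9, against 10.2% of all 32851 promoters. Psmb5 and Psmd12 were called lower, while Psmb6, Psmc6 and Psmd9 differed by -0.04, 0.01 and -0.11 and were not called. Members without an entry were Psmb1, Psmb2, Psmb7, Psmc3 and Psmd7. As above, the matches are of letters only, and whether the sites are used was not tested.

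Of these regulators, Nfe2l1, which restores proteasome genes when the proteasome is impaired, fell in PGISp spines. It read 10.33, 10.57, 10.35 and 10.71 in PGISp spines, against 10.99, 10.69, 10.99 and 10.83 in control spines. PGISp G lay just above control D, and controls B and F were the highest. The difference was -0.38 (interval -0.61 to -0.15, adjusted p = 0.0581 in limma). The call was lost without PGISp A (0.123), PGISp E (0.140), control B (0.147), control F (0.169) or control H (0.103) and in the methods' t-test (0.170), and without controls B and F the difference was -0.27 (adjusted p = 0.419). Nfe2l2 differed by 0.12 (adjusted p = 0.366). Whether either factor bears on the values of the members was not tested.

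Among the ATPases of the base, 5 of 6 lay below 0, with a median of -0.14, and limma called 0 of them. Psmc1 (-0.19, adjusted p = 0.164) and Psmc3 (-0.21, adjusted p = 0.138) had an unadjusted p under 0.05. Psmc2, Psmc4 and Psmc5 differed by -0.14 to -0.09, and Psmc6, which read at background, by 0.01. The other base members were Psmd1 (0.09), Psmd2 (-0.03), both scaffolds of the base, and Psmd4, a ubiquitin receptor (-0.18, adjusted p = 0.277). Chaperones that assemble the base, Psmd5, Psmd9 and Psmd10, differed by -0.11 to 0.04.

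In the core, members of the alpha ring, which gates the entry to the particle, differed by -0.08 (Psma7) to 0.15 (Psma2), with a median of 0.0020 over 5 genes and 0 calls. The beta subunits without catalytic sites, Psmb1 to Psmb4, ran between -0.14 and 0.15. Psmb4 is named after its values were seen. It read 11.30, 11.34, 11.37 and 11.33 in PGISp spines, against 11.48, 11.48, 11.45 and 11.48 in control spines. The groups did not overlap, and the spread within them was the smallest of any member, with a residual SD of 0.022 against a median of 0.124 over members and 0.113 over all genes. The difference of -0.14 (interval -0.25 to -0.03) did not pass in limma (adjusted p = 0.139), which draws so small a spread towards that of other genes, and was the only member call of the methods' t-test (adjusted p = 0.0316). It also passed in limma with no filter on dim probes (adjusted p = 0.0728). Psmc3ip (0.0017) and Psme3ip1 (-0.09), the proteins that are not subunits, were not called.

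Below 0 lay 24 of the 38 members, or 63.2%, against 51.5% of all genes tested. The median difference was -0.04 over all members and -0.08 over the 33 that are not inducible. With each gene centred on its mean, the average over the 38 members was -0.021, -0.088, -0.00050 and -0.0061 in PGISp spines A, C, E and G, against 0.028, 0.030, 0.053 and 0.0049 in control spines B, D, F and H. PGISp C was the lowest and control F the highest, and no PGISp spine exceeded a control spine. Without PGISp C the median over all members was -0.0091. The averages of all genes tested, taken the same way, were -0.0037 to 0.0061 in PGISp and -0.0040 to 0.0042 in control spines. Normalization holds these near 0, so they do not show how far an average over 38 genes varies.

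**Figure D4:**
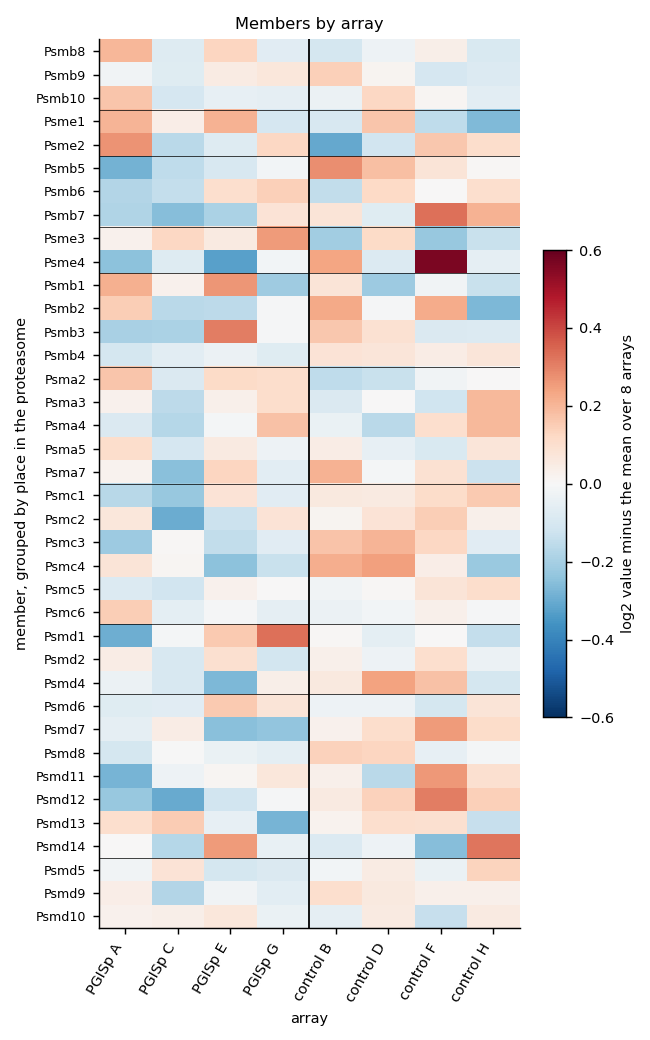
Log2 value of each of the 38 members on each array minus its mean over the 8 arrays (colour, red above and blue below the mean), with PGISp spines in the 4 columns on the left and control spines in the 4 on the right, and lines between places in the particle. In Psmb4, Psmb5 and Psmd12 all PGISp spines lie below the mean and all control spines above it.

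Genes around the proteasome were followed in lists. Of the factors that assemble the core, Pomp, which is needed for new particles, differed by -0.16 (adjusted p = 0.249) and Psmg1, Psmg2 and Psmg3 by 0.0044 to 0.08. Limma called 0 of the 4, and 0 had an unadjusted p under 0.05. Of 6 proteasome-associated proteins 0 were called, with 1 higher (Sem1, a lid component, 0.21) and 1 lower (Ecpas, a scaffold, -0.35) at an unadjusted p under 0.05. Of 5 ubiquitin shuttles and unfolding factors 0 were called, and Rad23b, a shuttle, differed by 0.36 (adjusted p = 0.105). The methods' t-test called 0 genes of these 3 lists.

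Genes of MHC class I presentation, which takes up the peptides of the proteasome, rose in part. Of 10 measured, 4 rose and 0 fell, against 6.26% and 4.56% of all genes tested. The median was 0.18, and 0 of the 10 lay below 0, against 51.5% of all genes tested. B2m, the light chain of class I molecules, read 12.72, 12.48, 12.47 and 12.40 in PGISp spines, against 11.95, 12.25, 11.93 and 12.11 in control spines, a difference of 0.46 (adjusted p = 0.0209). H2-K1, a heavy chain, differed by 0.36 (adjusted p = 0.0347), Pdia3, a disulfide isomerase of the loading complex, by 0.53 (adjusted p = 0.0311) and Nlrc5, the activator of class I genes, by 0.18 (adjusted p = 0.0872). In all 4 the groups did not overlap, nor did they in Tapbpl (0.14, adjusted p = 0.225). Of all genes tested, 7.77% showed no overlap of this direction. Tapbp (0.02), H2-D1 (0.18) and Calr (0.65) were not called, and Erap1 and Canx lay below the filter. Nlrc5 lay above background on all 4 PGISp arrays (6.85 to 6.93) and on 1 of 4 control arrays (6.66 to 6.80), so that its difference is limited by background, and its call was lost with any single array but control D left out (adjusted p = 0.108 to 0.230). The neighbours of Psmb8 and Psmb9 in the genome, the peptide transporter genes Tap2 and Tap1, did not pass. Tap1 read 7.03, 7.05, 6.95 and 6.96 in PGISp and 6.94, 6.90, 6.98 and 6.82 in control spines (difference 0.09, adjusted p = 0.404). All 8 values of Tap1 lay close to background, which limits its difference. Tap2 read 8.40, 8.36, 7.73 and 7.60 in PGISp and 7.94, 8.07, 8.11 and 7.87 in control spines (difference 0.03, adjusted p = 0.948). PGISp A and C were its highest values and PGISp E and G its lowest. Without control F and in the methods' t-test 2 genes of the list were called, and without controls B and F 0 were, where 123 of all genes were called higher and 40 lower.

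Of 13 genes of the interferon gamma pathway, 2 rose and 0 fell, against 6.26% and 4.56% of all genes tested. The median was 0.10, with 9 above 0 and 4 below. Those that rose were Irf1 (0.25, adjusted p = 0.0888) and Irf8 (0.29, adjusted p = 0.0499), transcription factors that interferon gamma induces. Irf1 is also an activator of the inducible proteasome genes. The others ran from -0.07 (Gbp2) to 0.69 (Irgm1, adjusted p = 0.133), and included Cxcl9 (-0.05), Gbp3 (0.09) and Ciita (0.08). Socs1, Iigp1 and Cxcl10 lay below the filter. The count was 0 without PGISp C, control F or control H, 1 without PGISp A, PGISp E or control B and 4 without PGISp G. It was 0 without controls B and F together and 0 in the methods' t-test.

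General leukocyte, neutrophil and some monocyte and macrophage markers moved with the groups. Of 7 B cell genes 0 were called (median -0.01), and of 5 T cell and NK cell genes 1 rose (median 0.11). Of 10 general leukocyte genes 6 rose and 0 fell, with a median of 0.56, and their mean level was 9.72 to 9.93 in PGISp spines and 9.24 to 9.44 in control spines. Cd52 (0.85), Arhgdib (0.81), Rac2 (0.78) and Coro1a (0.67) were the highest. Of 12 neutrophil genes 9 rose, with a median of 0.64 and mean levels of 12.28 to 12.47 in PGISp and 11.72 to 11.86 in control spines, and of 8 monocyte and macrophage genes 3 rose, with a median of 0.31. Skeletal muscle markers had a median of -0.51 and mean levels of 11.78 to 12.69 in PGISp and 12.37 to 12.93 in control spines, and 1 of 10 fell (Mb). Of the markers with a probe in the general leukocyte, neutrophil, monocyte and macrophage, and skeletal muscle lists, Ccr2 alone lay below the filter. The part of these cell types in the values of Psmb5, Psmd12, Psmb8 or any other member was not tested.

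**Figure D5:**
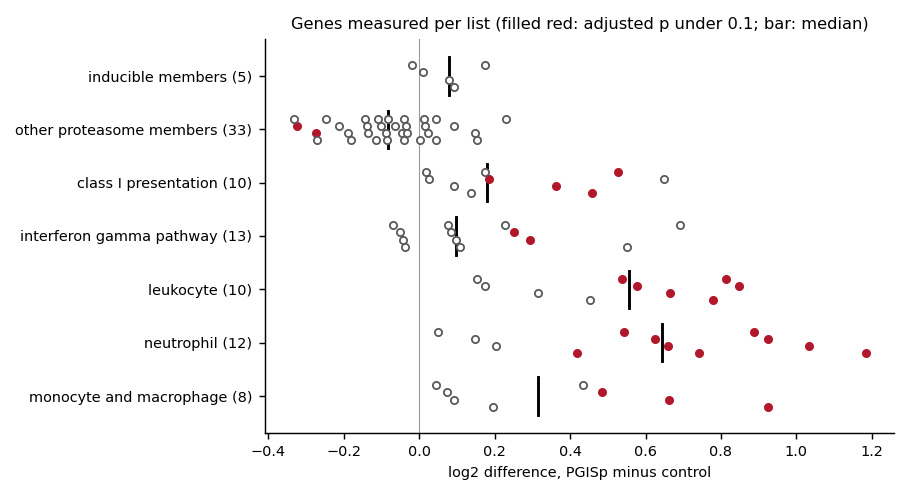
Log2 difference between PGISp and control spines (horizontal axis) of each gene measured, with 1 line of points per list and the number of genes in brackets. Filled points passed the test and bars are medians. The medians of the inducible and the other proteasome members lie close to 0, whereas the leukocyte and neutrophil lists centre at 0.56 and 0.64.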

How the data were processed

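The authors read the bead signals with BeadStudio (per the labels) or GenomeStudio (per the methods), versions not given in the sources used here, and used the lumi package for a variance stabilizing transformation and robust spline normalization. The deposited log2 values are the result and were analysed as they stand. The arrays share nearly the same distribution of values. A further deposited table of signals was not used, since its 16 columns of per-sample values could not be assigned to samples by name. Each spine came from a separate mouse, and the number of arrays, 8, limits the precision. Variance stabilized values flatten towards background, which understates the change of dim probes.

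Of 25697 probes, 25695 had values, and 23976 of these had 1 gene symbol, 0 several and 1719 none. For 23960 probes the symbol was brought up to date by gene identifier. Probes averaging above the median of all values were kept (12492, among them 8 of 1305 receptor probes), and a gene was read from its brightest probe. Background was the 95th percentile of the receptor probes on each array. The group comparison used lmFit and eBayes of limma, and the pairs an exact permutation test. The threshold follows the study's false discovery rate. The members and lists were chosen with earlier results of these data known. Values on all arrays are given for the inducible members, their counterparts, the called members and the 3 uncalled members with the largest difference (Psme4, Psmb7 and Psmd7), and of each list up to 4 called genes are named. Runs on other settings covered the filter, probe, variance model, weights, position, normalization, threshold, test and left-out arrays. The fit was tested on simulated data. The versions were limma 3.58.1 in R 4.3.3, and, in Python 3.11.15, matplotlib 3.10.9, scipy 1.17.1, numpy 2.4.6 and pandas 2.3.3.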

Additional observations from a re-analysis of the deposited data

Results flagged for a closer look

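Psmb4 read 11.449 on control F, below the other control spines at 11.477 to 11.483. Its gap to the nearest of them, over the range of the group, was 0.833, just above the critical value of Dixon's test for 4 samples. This was 1 of 76 groups of 4 examined, all in the 38 members, and chance alone gives about 1 in 20. No PGISp spine stood apart by this measure in any member. The spread concerned is small, since the 4 control spines lay within 0.034 of each other.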

How the results depend on the processing

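Of the values of single members under other settings, 694 kept their direction and side of the threshold, 14 lost a call, 10 gained one and 42 changed sign. The count of members called lower, 2, was 1 in the methods' t-test and at an adjusted p under 0.05, 0 without controls B and F, and 0 to 3 with single arrays left out, while the count called higher was 0 to 1. The median over all members was -0.065 to -0.0091 with single arrays left out. The difference of Psmb9 minus Psmb6 was -0.0057 to 0.15. Sign changes came in genes whose main difference lay between -0.09 (Psmb2) and 0.09 (Psmd1), and the changed values reached -0.13 (Psmd14). Without controls B and F they were Psma3 (-0.10), Psma5 (-0.0044), Psma7 (0.028), Psmb2 (0.095), Psmd10 (-0.032), Psmd14 (-0.13), Psmd2 (0.018) and Psmd6 (-0.00029). With array weights they were Psmb3 (0.024), Psmb6 (0.012), Psmc6 (-0.0055) and Tap2 (-0.095), and with array position as a covariate Psma4 (0.0011), Psmb6 (0.0095) and Tap2 (-0.053). With single arrays left out, differences ran from -0.037 to 0.067 in Psma3, -0.11 to 0.010 in Psma4, -0.019 to 0.049 in Psma5, -0.078 to 0.019 in Psmb10, -0.15 to 0.017 in Psmb3, -0.092 to 0.016 in Psmb6, -0.020 to 0.060 in Psmb9, -0.033 to 0.036 in Psmc6, -0.0021 to 0.21 in Psmd1, -0.096 to 0.048 in Psmd13, -0.059 to 0.13 in Psmd14, -0.011 to 0.15 in Psme2 and -0.098 to 0.17 in Tap2. The cause was not tested, though leaving out B and F leaves 2 control spines and fewer calls over all genes (123 higher and 40 lower, against 601 and 438). Of the companion lists, calls ran from 0 to 5 for class I presentation, 0 to 4 for the interferon gamma pathway, 5 to 8 for leukocytes, 7 to 10 for neutrophils, 2 to 5 for monocytes and macrophages, 1 to 6 for osteoblasts and 0 to 7 (lower) for skeletal muscle. No paired analysis was possible because the labels give no replicate numbers that the groups share. Normalization of the signals by neqc was not run, since their columns have no sample. Signal over background limits Psmb8, Psmb9, Psmc6, Psmd2, Psmd5, Psmd6, Psmd8, Psmd9, Nlrc5 and Tap1, which on average read within 0.5 of it.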

Other observations

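Other cell types of the spine were followed beside the members. Over all genes tested, 6.26% were called higher and 4.56% lower. Of 8 osteoblast genes 4 rose and 0 fell in PGISp spines, with a median of 0.48, led by Ibsp (1.39, adjusted p = 0.00745 in limma) and Col1a1 (1.33, adjusted p = 0.0146), both of bone matrix, and by Sparc (0.67, adjusted p = 0.086) and Col1a2 (0.47, adjusted p = 0.0872). Of the neutrophil list, Prtn3 (1.18), Ctsg (1.03), Elane (0.92) and Mpo (0.89), all of the granules of immature neutrophils, had the highest differences, and Lyz2 (0.92), Fcgr3 (0.66) and Cd14 (0.48) were those that rose in the monocyte and macrophage list. Nkg7 (0.66, adjusted p = 0.00185), a granule protein, was the 1 of 5 T cell and NK cell genes that rose, and Xbp1 (0.68, adjusted p = 0.00282), which drives secretory cells, the 1 of 3 plasma cell genes. Cytl1, a cytokine-like protein of cartilage, fell by 0.79 (adjusted p = 0.00269), the 1 of 5 cartilage genes to do so, and Mb, the oxygen store of muscle, fell by 0.88 (adjusted p = 0.0114).

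Limma called 0 of 7 B cell genes (0 at an unadjusted p under 0.05), 0 of 5 erythroid genes (1 lower at an unadjusted p under 0.05), 0 of 5 adipocyte genes (4 lower), 0 of 4 endothelial genes (1 higher) and 0 of 1 dendritic cell gene measured (1 higher). The methods' t-test called 0 genes of these 5 lists. The medians of these lists were -0.01, -0.04, -0.22, 0.02 and 0.23. Psmd7, Psmb7, Psmc1, Psmc3 and Psme3, none of which passed, were each called once an array was left out, Psmd7 without PGISp C (-0.30, adjusted p = 0.0706), Psmb7 without PGISp G (-0.34, adjusted p = 0.0502), Psmc1 without PGISp E (-0.25, adjusted p = 0.0854), Psmc3 without control H (-0.27, adjusted p = 0.079) and Psme3 without control D (0.31, adjusted p = 0.0534).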
